A study of Saccharomyces cerevisiae with 21 samples.

Results

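Budding yeast cells in log phase were profiled with a cycloheximide (CHX) pretreatment of the culture (+PT) and without it (-PT), and the 2 pairs of libraries were compared gene by gene for ribosome-protected fragment (RPF) counts and for the polarity score. These 4 libraries, 2 log +PT and 2 log -PT, were taken by their labels out of the 19 ribosome profiling libraries analysed here, whose wider subject is the response of translation to glucose withdrawal. All 4 came from BY4741 (MATa his3Δ1 leu2Δ0 met15Δ0 ura3Δ0), grown at 30 °C in synthetic complete (SC) medium with 2% glucose to an optical density of 0.4 to 0.6, filtered and frozen. The +PT cultures had received 100 µg/mL CHX for 1 min before harvest, and the -PT cultures had received none. The library method changed together with the pretreatment: the +PT libraries came from gradient-purified monosomes, 28-nt fragments and polyadenylation, whereas the -PT libraries came from monosomes isolated by size exclusion, gel-selected footprints, linker ligation and molecular identifiers with removal of duplicates. Pretreatment, library chemistry and the experiment itself therefore cannot be told apart between the 2 groups. Libraries from log phase in YPD without pretreatment (1 library) and from 15 min of glucose starvation (5 libraries) were set beside them where they bear on a result.

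An RPF is the stretch of mRNA that an elongating ribosome shields from nuclease, and sequencing such fragments shows which messages are being translated and where along them ribosomes stand. CHX binds the large ribosomal subunit and blocks translocation. Added to a living culture it stops elongation while new ribosomes can still initiate, so that footprints can build up near the start of coding sequences, and this is why many protocols now leave it out of the culture. The polarity score gives the mean place of the RPFs of a gene on a scale on which -1 is the 5′ end of the coding sequence, 0 is an even spread and 1 is the 3′ end.

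The log +PT libraries held 4273703 and 5170260 RPF counts, and the log -PT libraries held 3523240 and 94585. Log -PT replicate 2 stands apart by its depth: its median was 3 reads a gene, 1 read there is worth 10.6 CPM (counts per 1000000 counts of the library), and 554 genes had more than 25 reads in it, against 4706 to 4901 in the other 3. Over the 547 genes that passed 25 reads in each of the 4 libraries, log2 CPM correlated across genes with r = 0.953 between the +PT libraries and 0.940 between the -PT libraries, but with r = 0.679 to 0.739 between libraries of different groups. The polarity score gave 0.945, 0.879 and 0.687 to 0.773 for the same pairs. Marker genes largely fitted the strain label: URA3, LEU2 and MET17, each deleted in BY4741, had at most 9.93 CPM in any of the 4 libraries. Without log -PT replicate 2 the deleted genes, HIS3 included, had a median log2 difference (+PT over -PT) of -5.46 (3 tested). Low -PT levels can thus include reads on genes that the strain lacks, and their source was not tested. The MATa receptor gene STE2 had 347 and 771 CPM in +PT cells and 307 and 423 CPM in -PT cells. HIS3, of which the his3Δ1 allele keeps a part, had 128 and 76.2 CPM in +PT cells and 86.3 and 63.4 CPM in -PT cells.

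As a class, genes that have a near-identical copy elsewhere in the genome showed the largest count differences. Yeast keeps many such pairs from an ancient whole-genome duplication, and an RPF from a stretch that both copies share fits both places. For each gene the share of 28-base windows of its coding sequence that occur unchanged at another genomic place was computed from the R64 assembly, 28 bases being the length of a +PT fragment. How the authors counted reads that fit several places is not given in the sources used here, so the level of any single copy is uncertain. The sequences below are the coding stretches by which 2 of these pairs differ most, and the results on position refer back to them. RPS8A (YBL072C) and RPS8B (YER102W) encode the same protein of the small ribosomal subunit. Their coding sequences differ at 11 of 603 bases, all of them between bases 36 and 138. The first 120 bases of RPS8A (R64, II:89006-89125, minus strand) and of RPS8B (V:363100-363219, plus strand) follow, both inside the single coding exon, with capitals where the copies differ.
RPS8A: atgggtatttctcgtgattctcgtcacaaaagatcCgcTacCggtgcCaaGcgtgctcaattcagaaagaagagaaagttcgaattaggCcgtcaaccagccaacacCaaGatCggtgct
RPS8B: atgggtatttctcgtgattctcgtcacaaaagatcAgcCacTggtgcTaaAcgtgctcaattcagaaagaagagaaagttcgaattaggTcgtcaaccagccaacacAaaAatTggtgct
HXT6 (YDR343C) and HXT7 (YDR342C) are neighbouring genes for high-affinity hexose transporters, which take up glucose when it is scarce. They differ at 3 of 1713 coding bases, between bases 1632 and 1677, and the last 120 coding bases of HXT6 (R64, IV:1159608-1159727, minus strand) and of HXT7 (IV:1154216-1154335, minus strand) are shown, again with capitals at the differing bases and both from RefSeq.
HXT6: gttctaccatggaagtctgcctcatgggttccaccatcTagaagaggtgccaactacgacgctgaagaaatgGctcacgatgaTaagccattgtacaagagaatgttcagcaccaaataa
HXT7: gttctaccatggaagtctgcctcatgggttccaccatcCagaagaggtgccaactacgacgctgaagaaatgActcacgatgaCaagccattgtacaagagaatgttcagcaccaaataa

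TEF1 and TEF2, which both encode the elongation factor eEF1A that delivers aminoacyl-tRNA to the ribosome, carried far fewer RPFs in +PT than in -PT libraries. TEF1 (YPR080W, XVI:700594-701970, 1 coding exon, 95.9% of windows shared) had 1193 and 639 CPM in +PT cells, against 20112 and 20183 CPM in -PT cells. The groups were far apart, and the fitted difference was -4.67 on the log2 scale (SE 0.40, edgeR adjusted p = 4.5e-05). TEF2 (YBR118W, II:477671-479047) had 1433 and 675 CPM in +PT cells, against 20237 and 20659 CPM in -PT cells, a difference of -4.48 (SE 0.43, adjusted p = 7.9e-05, and 0.062 without log -PT replicate 1). Summed, the pair took 2626 and 1314 CPM in +PT cells and 40350 and 40842 CPM in -PT cells, so the low value of one copy was not made up by the other. EFT1 (YOR133W, XV:575098-577626) and EFT2 (YDR385W, IV:1243230-1245758) encode eEF2, which drives translocation. EFT1 had 143 and 109 CPM in +PT cells and 6550 and 7200 CPM in -PT cells, and EFT2 had 332 and 222 CPM in +PT cells and 6655 and 6745 CPM in -PT cells. The log2 difference of EFT2 was -4.81 (SE 0.34), and the edgeR adjusted p was 2.4e-06 for EFT1 and 9.2e-06 for EFT2. The -PT libraries divided each pair almost evenly, EFT1 holding 49.6% and 51.6% of its pair there, whereas EFT1 held 30.1% and 32.9% of the pair in +PT libraries.

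Some less used copies of metabolic and transport genes, picked by the size of their fall, were also lower in +PT libraries. ADH2 (YMR303C, XIII:873291-874337, minus strand), the ethanol-consuming alcohol dehydrogenase that glucose represses, shares 19.5% of its windows, chiefly with ADH1. It had 5.62 and 10.3 CPM in +PT cells, against 2256 and 1470 CPM in -PT cells, a difference of -8.14 (SE 0.39, edgeR adjusted p = 6.7e-07). PMA2, a little used copy of the plasma membrane proton pump PMA1, had 7.96 and 9.67 CPM in +PT cells and 708 and 571 CPM in -PT cells. Its difference was -6.45 (SE 0.31, adjusted p = 6.7e-07), although it is only 84.4% identical to PMA1 over the aligned stretch and 4.6% of its windows are shared. The pyruvate decarboxylase copy PDC5 (5.2% shared) had 26.4 and 69.2 CPM in +PT cells and 1935 and 1533 CPM in -PT cells, a difference of -5.47 (SE 0.40, adjusted p = 1.1e-05). TDH1, the least expressed of the glyceraldehyde-3-phosphate dehydrogenase genes in growing cells, had 183 and 155 CPM in +PT cells and 9791 and 6703 CPM in -PT cells, a difference of -5.85 (SE 0.35, adjusted p = 4e-06). Its abundant relative TDH3 had 18132 and 14157 CPM in +PT cells and 24660 and 26685 CPM in -PT cells, and its difference of -0.90 did not pass the test (adjusted p = 0.10). Between TDH1 and TDH3 the copy with the lower level had the larger difference. HXT7 had 4.21 and 6.19 CPM in +PT cells and 94.2 and 95.2 CPM in -PT cells, a difference of -4.43 (adjusted p = 3.1e-05, and 0.093 without log -PT replicate 1), and HXT6 was represented by 1 and 1 reads in +PT cells and by 330 and 6 reads in -PT cells. Of 12 tested hexose transporter genes 6 were lower and 1 was higher (median -1.96), beside 4.36% lower and 1.76% higher of all genes. Without -PT replicate 1 none of 9 was called by edgeR (3 lower and 1 higher at an unadjusted p under 0.05). The gene that was higher, named after its values were seen, was HXT2 (1.23, adjusted p = 0.022). Only 4 of the 12 have no shared window, and 1 of these 4 was lower (median -1.96).

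**Figure D1:**
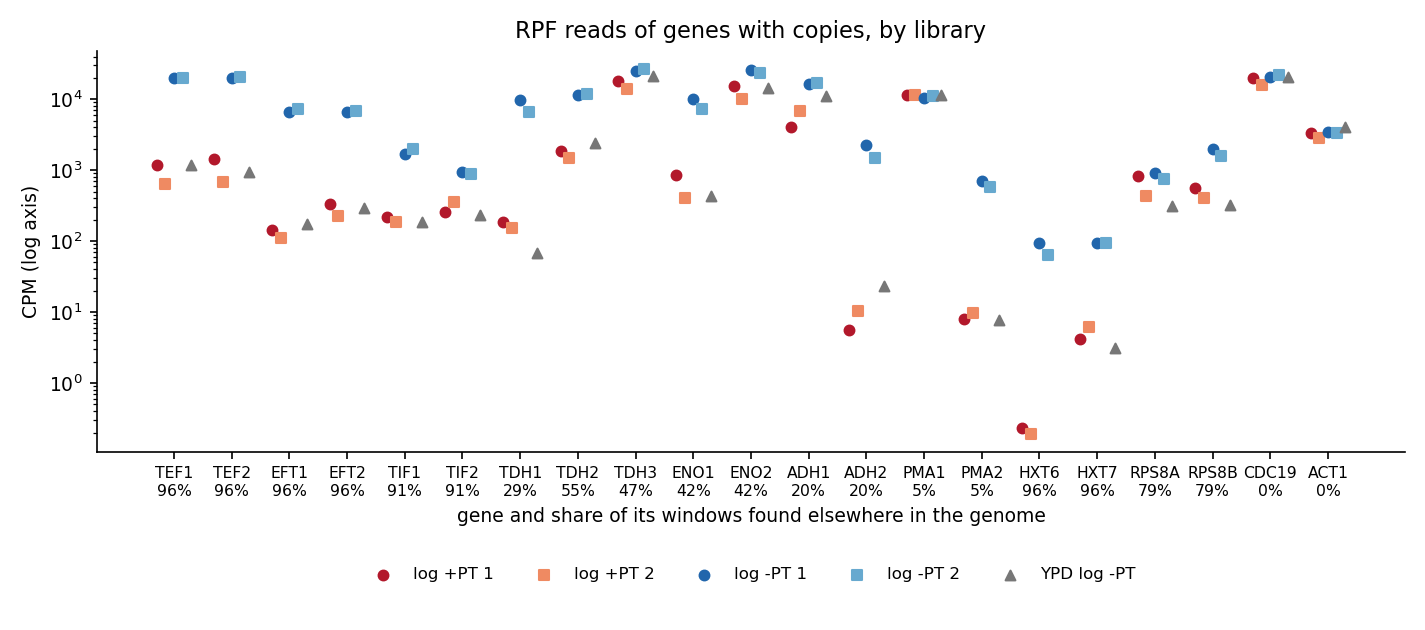
RPF level in CPM (logarithmic axis) of single gene copies, 1 point for each library, with log +PT left of log -PT and the YPD log library beside them; the percentage under each gene is its share of windows found elsewhere in the genome. TEF1, TEF2, EFT1, EFT2, TDH1, ADH2 and PMA2 lie far lower in both +PT libraries than in both -PT libraries, and the YPD library, which had no pretreatment, lies with the +PT libraries for these genes (its 0 for HXT6 is not drawn).

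Over all genes, 5163 were tested by counts: 91 were higher in +PT (1.76%) and 225 were lower (4.36%), with a median log2 difference of 0.02. The calls leaned on log -PT replicate 1: without it 0 were higher and 26 lower (296 and 227 at an unadjusted p under 0.05), and without +PT replicate 1, +PT replicate 2 and -PT replicate 2 the counts were 124 and 286, 226 and 351, and 13 and 189. Of the 84 tested genes with 50% or more of their windows shared, 70 were lower and 1 was higher, with a median of -4.01. DESeq2 called 63 of them lower. Without log -PT replicate 1, which leaves the shallow library alone on the -PT side, 8 of 49 were lower, and without any of the other 3 it was 70 to 81. Among the 122 genes with 10% to 50% of windows shared, 26 were lower and 3 were higher (median -0.33). Of the 286 genes with fewer than 10% shared, 15 were lower and 8 were higher, and of the 4669 with none, 112 were lower (2.4%) and 79 were higher (1.69%), with medians of 0.10 and 0.04. The class with 50% or more shared took 2.58% and 2.37% of all RPFs in +PT libraries, against 12.6% and 12.7% in -PT libraries. The YPD log library, made without pretreatment by the newer method, gave 2.45% for this class, close to the +PT libraries. The same split appeared at 15 min of starvation: 2.24% and 1.62% in +PT libraries of the older method, 12.5% in a +PT library of the newer method, and 11.5% and 12.8% in -PT libraries.

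**Figure D2:**
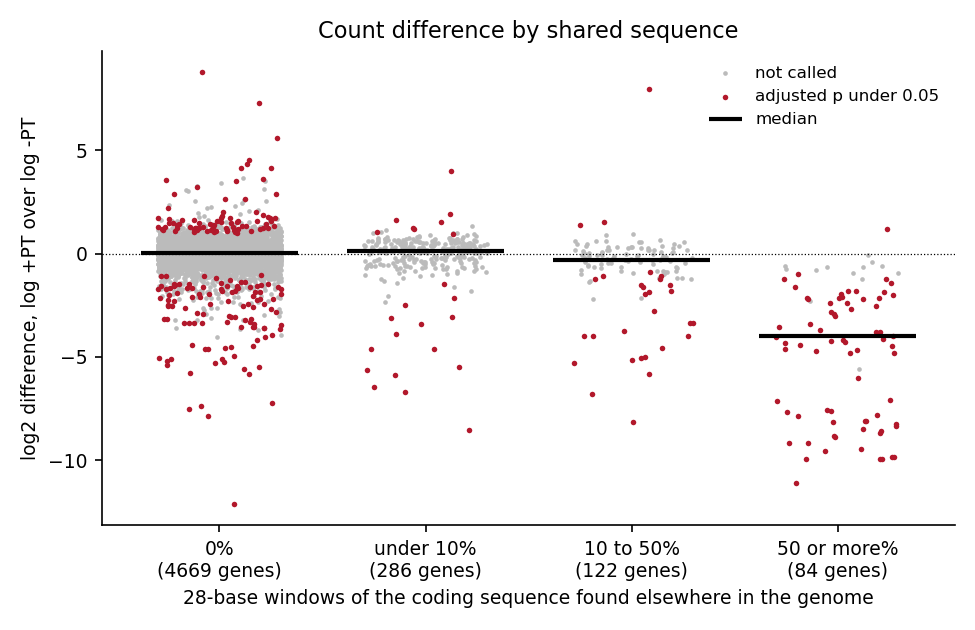
Log2 count difference (+PT minus -PT, edgeR) of each tested gene by the share of its 28-base coding windows that occur elsewhere in the genome; each point is a gene, red where the adjusted p was under 0.05, and the bar is the median of the class. The class with 50% or more shared is centred on -4.01, and the class with none is centred on 0.04.

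In several near-identical pairs the polarity score of the +PT libraries lay close to the bases that tell the copies apart, and that of the -PT libraries did not. The 11 bases that tell RPS8A from RPS8B lie near the start, and the windows unique to either copy are centred at -0.709 on the polarity scale. RPS8A scored -0.691 and -0.587 in +PT libraries, against -0.061 and -0.090 in -PT libraries. RPS8B scored -0.683 and -0.640 in +PT libraries, against 0.077 and 0.093 in -PT libraries. Both +PT scores of both copies lay near the centre of the unique windows, both -PT scores lay near 0, and the differences were -0.564 and -0.746 (SE 0.053 and 0.050, limma adjusted p = 1e-09 and 1.4e-12). In the YPD library they scored -0.561 and -0.695. HXT6 and HXT7 differ only near the end, where their unique windows are centred at 0.932. HXT7 scored 0.928 and 0.941 in +PT libraries, against 0.018 and -0.176 in -PT libraries, values that rest on too few reads for a test. EFT1 and EFT2, with unique windows centred at 0.154, were among the 7 genes whose score was higher in +PT: 0.205 and 0.184 in +PT against 0.027 and 0.011 in -PT libraries for EFT1 (difference 0.176, adjusted p = 0.0036), and 0.189 and 0.164 in +PT against 0.033 and -0.016 in -PT libraries for EFT2 (0.168, adjusted p = 0.0038). RPL4A, which shares 82.9% of its windows with RPL4B, scored 0.156 and 0.299 in +PT libraries and 0.087 and 0.028 in -PT libraries (0.170, adjusted p = 0.0065, and 0.14 without log +PT replicate 2). TEF1, with unique windows centred at 0.158, was another, and its call was lost without log +PT replicate 2 (adjusted p = 0.11) or log -PT replicate 2 (0.094). TEF2 has the same centre and went the other way, scoring -0.236 and -0.189 in +PT libraries against 0.056 and -0.005 in -PT libraries (-0.238, adjusted p = 0.00010). Over the 35 genes with 50% or more of windows shared and enough reads, the median distance between the score and the centre of the unique windows was 0.191 and 0.192 in +PT libraries, 0.407 and 0.422 in -PT libraries and 0.148 in the YPD library. Across these genes the score correlated with that centre with r = 0.59 and 0.58 in +PT libraries and r = -0.12 and -0.20 in -PT libraries, as a description over 35 genes that share their libraries. In the 80 genes with 10% to 50% of windows shared the distance was 0.221 and 0.212 in +PT libraries and 0.263 and 0.264 in -PT libraries, and r was -0.16 and -0.14 in +PT libraries and -0.42 and -0.44 in -PT libraries. Over both classes (115 genes) r was 0.34 and 0.34 in +PT libraries and -0.17 and -0.21 in -PT libraries.

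For genes with no shared window an RPF of 28 bases, the +PT fragment length, has a single exact place in the genome. The -PT footprints were selected on gels, with reads under 17 nt dropped. The window measure does not ensure a single place for their shorter reads. The largest rises in +PT cells among genes with no shared window included transporters of zinc and phosphate and enzymes of sulfur and aromatic amino acid metabolism. ZRT1, the high-affinity zinc transporter, had 398 and 743 CPM in +PT cells, against 21.3 and 42.3 CPM in -PT cells, a difference of 4.30 (SE 0.40, edgeR adjusted p = 6.4e-05). ZPS1, a cell wall protein of the zinc response, had 2577 and 379 CPM in +PT cells and 3.12 and 0 CPM in -PT cells (8.76, adjusted p = 0.00068). Both zinc-responsive genes were picked for a large rise without overlap, so the lack of overlap is no further result. The YPD library had 30.7 CPM of ZRT1 and 4.60 CPM of ZPS1. ARO10, the decarboxylase that turns aromatic keto acids toward fusel alcohols, had 149 and 312 CPM in +PT cells and 10.8 and 10.6 CPM in -PT cells (4.12, SE 0.42, adjusted p = 0.00012). ARO9, the aminotransferase one step before it, had 113 and 270 CPM in +PT cells and 21.0 and 21.1 CPM in -PT cells (2.89, adjusted p = 0.0016). The YPD library had 120 CPM of ARO10 and 144 CPM of ARO9, near the lower +PT library. PHO84, the high-affinity phosphate transporter, had 232 and 91.5 CPM in +PT cells and 12.8 and 0 CPM in -PT cells (3.56, adjusted p = 0.0047), and ADH4, a zinc-linked alcohol dehydrogenase, had 403 and 107 CPM in +PT cells and 19.6 and 21.1 CPM in -PT cells (3.50, adjusted p = 0.010). None of these rises was called without log -PT replicate 1, where their adjusted p was 0.15 to 0.52, and those of ZPS1, PHO84 and ADH4 also lost the call without log -PT replicate 2 (0.058 to 0.12). DESeq2 did not call PHO84 (adjusted p = 0.12) or ADH4 (0.053). Of 17 tested genes of the phosphate regulon, PHO84 was the 1 called higher by edgeR, and 2 were lower, beside 1.76% and 4.36% of all genes. The lower ones were PHO5 (-2.76, edgeR adjusted p = 0.0065) and PHO11 (-4.32, 0.0054), with 21.5% and 93.2% of windows shared. MIX23 rests on 1 library, with 24.8 and 1116 CPM in +PT cells and 9.08 and 10.6 CPM in -PT cells.

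Ribosome biogenesis (ribi) genes, which make and assemble ribosomal RNA and subunits and are highly expressed in fast growth, were shifted upward in +PT cells. Of 164 tested, 25 were higher (against 1.76% of all genes) and 0 were lower, with a median log2 difference of 0.67 beside 0.02 for all genes. At an unadjusted p under 0.05 edgeR had 82 higher and 0 lower, and DESeq2 called 8 higher and 0 lower. Of the 154 ribi genes with no shared window, 147 had a positive difference. As a group those 154 took 3.53% and 3.36% of all RPFs in +PT libraries, against 1.71% and 2.05% in -PT libraries, and 2.32% in the YPD library. These shares are to be read against those of all genes with no shared window. They took 69.3% and 69.9% in +PT, 56.3% and 56.3% in -PT libraries and 68.3% in the YPD library. KRI1, needed for 40S assembly, had 287 and 243 CPM in +PT cells, against 84.9 and 84.6 CPM in -PT cells (1.40, SE 0.29, adjusted p = 0.014). HCA4, a helicase of the small subunit processome, had 264 and 251 CPM in +PT cells and 80.9 and 95.2 CPM in -PT cells (1.37, adjusted p = 0.013). The 60S factor NOP53 had 133 and 160 CPM in +PT cells and 44.9 and 31.7 CPM in -PT cells (1.52, adjusted p = 0.0092). NOP16, another 60S factor, had 157 and 161 CPM in +PT cells and 49.7 and 21.1 CPM in -PT cells (1.57, adjusted p = 0.012). The count of ribi calls depended on the libraries: 14, 45, 0 and 2 were higher without +PT replicate 1, +PT replicate 2, -PT replicate 1 and -PT replicate 2, while the median stayed between 0.54 and 0.76.

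Genes of sulfate assimilation and methionine synthesis were high in +PT cells, most of all in +PT replicate 1. MET5, a subunit of sulfite reductase, had 943 and 318 CPM in +PT cells, against 46.3 and 42.3 CPM in -PT cells (3.59, SE 0.55, adjusted p = 0.0023). MET10, the other subunit, had 476 and 123 CPM in +PT cells and 35.2 and 42.3 CPM in -PT cells (2.86, adjusted p = 0.022). MET3, the ATP sulfurylase that opens the pathway, had 453 and 56.5 CPM in +PT cells and 13.1 and 10.6 CPM in -PT cells (4.14, adjusted p = 0.027), and SAM3, the S-adenosylmethionine permease, had 558 and 282 CPM in +PT cells and 122 and 137 CPM in -PT cells (1.52, adjusted p = 0.040). For each of the 4, +PT replicate 1 was the higher of the +PT libraries. These were the 4 called of 24 tested (against 1.76% of all genes called higher), 0 were lower, and the median was 1.84. At an unadjusted p under 0.05 edgeR had 16 higher and 0 lower. DESeq2 called 3 higher and 0 lower, but neither MET3 (adjusted p = 0.12) nor MET10 (0.17). SAM3 lost the call without +PT replicate 1 (adjusted p = 0.19). The median was 0.31 without +PT replicate 1 (3 higher and 1 lower), 2.64 without +PT replicate 2 (21 higher), and no member was called without either -PT library. The 22 members with no shared window took 1.81% and 0.854% of all RPFs in +PT libraries, against 0.516% and 0.568% in -PT libraries. All genes with no shared window took 69.3% and 69.9% in +PT and 56.3% and 56.3% in -PT libraries.

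Single genes of other functions were called higher in +PT cells, 1 or 2 in each list below, beside 1.76% of all genes. URA2, which catalyses the first steps of pyrimidine synthesis and was the only one called of the 12 tested genes named in the study, had 4727 and 4290 CPM in +PT cells, against 1343 and 1681 CPM in -PT cells (1.35, SE 0.26, edgeR adjusted p = 0.0095, 0.43 without -PT replicate 1 and 0.13 without -PT replicate 2). Among 29 initiation factors, FUN12 (eIF5B) had 1533 and 1283 CPM in +PT cells and 546 and 613 CPM in -PT cells (1.06, adjusted p = 0.030), and TIF4631 (eIF4G) had 1300 and 963 CPM in +PT cells and 454 and 444 CPM in -PT cells (1.10, adjusted p = 0.034). The eIF4A copies TIF1 and TIF2, 90.9% shared, went the other way (-3.42 and -1.80, adjusted p = 2.2e-05 and 0.00071), and the list median was 0.52. At an unadjusted p under 0.05 edgeR had 14 initiation factors higher and 2 lower. Of the 25 with no shared window, 24 had a positive difference. Of 50 respiratory genes 2 were higher, IDH2 of the citric acid cycle with 357 and 667 CPM in +PT cells and 179 and 159 CPM in -PT cells (1.29, adjusted p = 0.024) and ATP19 (1.36, adjusted p = 0.047), and DESeq2 called 1. The median of the respiratory genes was 0.51, with 15 higher and 1 lower at an unadjusted p under 0.05 by edgeR. Of the 48 with no shared window, 39 had a positive difference. Of 62 genes of amino acid synthesis the branched-chain aminotransferase BAT2 (1.29, adjusted p = 0.019) and ARG7 (1.26, adjusted p = 0.041) were higher. The median there was 0.22, with 10 higher and 6 lower at an unadjusted p under 0.05 by edgeR. The mating pheromone gene MFA1 had 143 and 181 CPM in +PT cells and 53.6 and 31.7 CPM in -PT cells (1.44, adjusted p = 0.013). FUN12, TIF4631, TIF2, IDH2, ATP19, BAT2, ARG7 and MFA1 lost the call without -PT replicate 1 (adjusted p of 0.15 to 0.49), all of them but TIF2 also lost it without -PT replicate 2 (0.059 to 0.20), and DESeq2 did not call ATP19, BAT2, ARG7 or MFA1.

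Stress and chaperone genes lay lower in +PT cells. Of 28 heat shock and chaperone genes, 10 were lower (against 4.36% of all genes) and 0 higher, with a median of -0.78; 7 of the 28 share windows with a copy, and of the 21 that share none, 5 were lower, with a median of -0.62. SSA3, a stress-induced Hsp70, had 2.11 and 3.48 CPM in +PT cells, against 17.9 and 21.1 CPM in -PT cells (-2.95, edgeR adjusted p = 0.0054). DESeq2 called 5 of the 28 lower and 0 of the 21, and without +PT replicate 1, +PT replicate 2, -PT replicate 1 and -PT replicate 2 edgeR called 8, 18, 1 and 2 of the list lower. At an unadjusted p under 0.05 edgeR had 17 of the 28 lower and 1 higher. Of 27 general stress genes 4 were lower and 1 was higher (median -1.08). HSP12, a small membrane-protecting protein, had 27.6 and 25.9 CPM in +PT cells, against 93.9 and 52.9 CPM in -PT cells (-1.89, adjusted p = 0.0065). YGP1, a secreted glycoprotein induced by nutrient limitation, had 64.1 and 48.4 CPM in +PT cells, against 161 and 148 CPM in -PT cells (-1.71, adjusted p = 0.0052). For HSP12, 52.9 CPM in -PT replicate 2 stands for 5 reads. HOR7, which the list also holds, went the other way with 216 and 210 CPM in +PT cells and 64.7 and 63.4 CPM in -PT cells (1.47, adjusted p = 0.0085). Without -PT replicate 1 none of SSA3, HSP12, YGP1 and HOR7 was called (adjusted p of 0.37 to 0.54).

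Glycolysis and the translation machinery gave other counts once genes that share windows were left out. The counts by edgeR are to be read against 4.36% lower and 1.76% higher of all genes. Of all genes with no shared window 2.4% were lower and 1.69% higher. Of 21 glycolytic genes 7 were lower and 0 higher in +PT cells (edgeR; 15 lower and 0 higher at an unadjusted p under 0.05; DESeq2 8 and 0), with a median of -0.90. Of the 12 with no shared window 1 was lower, the median was -0.63, 7 had an unadjusted p under 0.05, and DESeq2 called 0. The cytosolic ribosomal proteins gave 22 lower and 3 higher of 137 tested, with a median of 0.07. All 22 that were lower share at least 13.8% of their windows with a copy, and of the 23 with no shared window 0 were called either way by edgeR or by DESeq2 (1 higher at an unadjusted p under 0.05, median 0.19). Elongation factors gave 6 lower of 21 and 0 called of the 11 with no shared window (3 higher at an unadjusted p under 0.05; DESeq2 0). RPS21A, a ribosomal protein copy, ran against its class with 372 and 119 CPM in +PT cells and 12.8 and 21.1 CPM in -PT cells (3.99, adjusted p = 0.0037, and 0.50 and 0.075 without -PT replicates 1 and 2). No member was called by edgeR or DESeq2 among 70 mitochondrial ribosomal proteins (median 0.29), 36 proteasome genes (-0.03), 22 aminoacyl-tRNA synthetases (0.16) and 34 genes of fatty acid and sterol synthesis (0.01). At an unadjusted p under 0.05 edgeR had 3 higher and 0 lower, 3 and 2, 2 and 0, and 1 and 2 in these 4 lists. Histone genes gave 1 lower of 11, HHF2 (-1.11, adjusted p = 0.019, and 0.37 without -PT replicate 1).

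**Figure D3:**
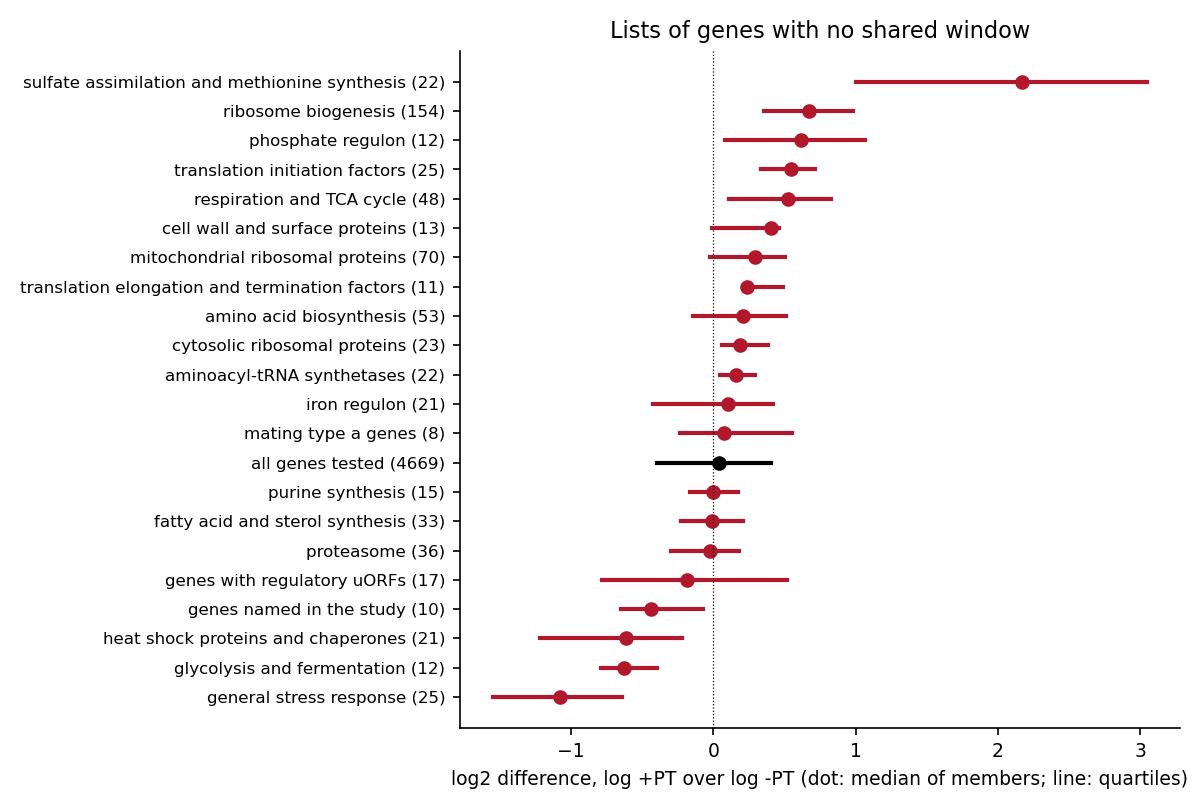
Median log2 count difference (+PT minus -PT) of the members of each gene list that have no shared window, with the quartiles as a line and the number of members tested in brackets. Sulfate assimilation (2.17) and ribosome biogenesis (0.68) lie to the right of all genes with no shared window (0.04, black), and heat shock, general stress and glycolysis lie to the left of it.

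Some of the largest falls were genes without a single +PT read. ENA2, a copy of the sodium pump ENA1, had 0 reads in both +PT libraries and 88.0 and 21.1 CPM in -PT libraries. The level that 3 reads over the +PT group would give is 172-fold below its mean -PT CPM. COS3, a subtelomeric membrane protein gene, had 0 in both +PT libraries and 32.9 and 31.7 CPM in -PT libraries (102-fold by the same measure), and ERR3, an enolase-related gene, had 0 in both +PT libraries and 26.7 and 63.4 CPM in -PT libraries (142-fold). All 3 belong to families of near-identical copies. The shallow -PT replicate 2, where 10.6 CPM is 1 read, weighs equally in the mean, so these folds are not lower bounds. IME2, the meiosis kinase, has no shared window and was also at 0 in both +PT libraries, but its -PT level of 205 and 10.6 CPM is 723 reads in replicate 1 and 1 read in replicate 2. YOL013W-A had 0.234 and 0 CPM in +PT libraries and 148 and 19485 CPM in -PT libraries, and YPR108W-A had 0 and 0 CPM in +PT libraries and 4.83 and 708 CPM in -PT libraries, so most of their -PT level came from the shallow library. Without that library YOL013W-A was still called (adjusted p = 0.0018) and YPR108W-A was not (0.070). PDR5 and PDR15, multidrug exporters, are named after their values were seen, because yeast exports CHX with PDR5. PDR5 had 1025 and 770 CPM in +PT cells, against 2115 and 2876 CPM in -PT cells (-1.69, edgeR adjusted p = 0.0046, and 0.22 and 0.11 without -PT replicates 1 and 2). PDR15 had 14 and 25.3 CPM in +PT cells, against 144 and 159 CPM in -PT cells (-3.18, adjusted p = 0.00011, and 0.093 without -PT replicate 1).

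The count difference varied weakly with the length of the coding sequence. Among genes with no shared window, the shortest (78 to 801 nt, 1173 genes) had a median of 0.27 with 31 higher and 17 lower. Genes of 804 to 1272 nt (1173 genes) had a median of 0.02 with 18 higher and 28 lower. Genes of 1275 to 1929 nt (1163 genes) had a median of -0.02 with 16 higher and 22 lower. The longest (1932 to 14733 nt, 1160 genes) had a median of -0.13 with 14 higher and 45 lower. These counts are to be read against 1.69% higher and 2.4% lower of all 4669 genes with no shared window. Across those 4669 genes Spearman's rho was -0.25 with coding length, 0.17 with the share of A and -0.07 with GC content, given as a description since all genes share the same 4 libraries.

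RPFs lay nearer the 5′ end in +PT than in -PT libraries. Over the same 547 genes, the median polarity score was -0.104 and -0.0988 in +PT libraries, against 0.0642 and 0.0557 in -PT libraries. The 2 libraries of each group lay close together and the groups were apart by -0.161, which the exact permutation test over 4 libraries cannot take below p = 0.333. A score below 0 was held by 75.1% and 73.7% of the genes in +PT libraries, by 15.5% and 32.0% in -PT libraries and by 37.1% in the YPD library. The score was lower in +PT for 496 of the 547 genes (90.7%), with a median difference of -0.160 and quartiles of -0.230 and -0.0912, and 303 genes had a mean score below 0 in +PT and above 0 in -PT libraries, against 6 the other way. Tested gene by gene with limma, 349 were lower (63.8%) and 7 were higher (1.28%). With each library's scores centred on their own median, which removes the shift common to all genes, 45 were lower and 50 higher. Without +PT replicate 1, +PT replicate 2 and -PT replicate 1 the counts were 219 lower and 8 higher, 246 and 3, and 283 and 16. With the shallow library left out, 4556 genes could be compared, with medians of -0.146 and -0.145 in +PT libraries and 0.0490 in -PT replicate 1, and 2483 of them were lower (54.5%) and 30 higher (0.658%). The median score of the YPD library was 0.0298.

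**Figure D4:**
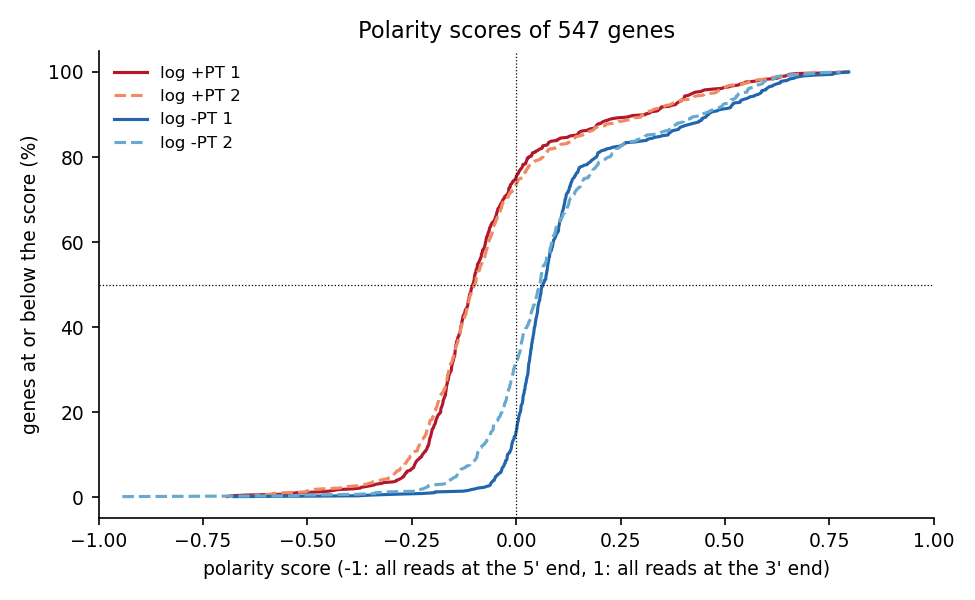
Cumulative share of the 547 genes (vertical axis) at or below each polarity score (horizontal axis, -1 the 5′ end and 1 the 3′ end) in each of the 4 log phase libraries. The +PT curves cross 50% at -0.104 and -0.0988 and the -PT curves at 0.0642 and 0.0557.

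The largest single differences were in ribosomal protein genes. RPL41A (IV:130407-130484, minus strand), which at 78 nt encodes one of the smallest ribosomal proteins and shares 82.4% of its windows, scored -0.526 and -0.503 in +PT libraries, against 0.424 and 0.452 in -PT libraries. The difference was -0.953 (SE 0.068, limma adjusted p = 3.6e-12). RPL14B, with 2 coding exons and 51.0% of windows shared, scored -0.449 and -0.622 in +PT libraries, against 0.444 and 0.296 in -PT libraries (-0.906). Both scored near their +PT values in the YPD library, at -0.502 and -0.612. The acidic ribosomal protein RPP1B, with 6.1% shared, scored -0.336 and -0.353 in +PT libraries and 0.364 and 0.250 in -PT libraries (-0.651), with 0.028 in the YPD library. Among genes with no shared window, the cell wall mannoprotein CCW12 (XII:369697-370098, minus strand) had the largest difference, scoring -0.274 and -0.293 in +PT libraries against 0.284 and 0.096 in -PT libraries (-0.474, SE 0.051, adjusted p = 1.4e-08). ERG6, the sterol methyltransferase, scored -0.241 and -0.259 in +PT libraries and 0.107 and 0.243 in -PT libraries (-0.425, adjusted p = 1.1e-06), and GPM1, the glycolytic phosphoglycerate mutase, scored -0.208 and -0.196 in +PT libraries and 0.162 and 0.119 in -PT libraries (-0.342, adjusted p = 5.6e-07). For each of these genes both +PT scores were below 0 and both -PT scores above it. In the YPD library ERG6 and GPM1 scored 0.082 and 0.028, between the groups.

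Members with a lower score were found in each functional group described here, at shares to be read against the 63.8% of all genes. Among 132 ribosomal proteins of the cytosol there were 86 lower and 3 higher scores, with a median difference of -0.148, beside -0.160 for all genes. Of 17 glycolytic genes 15 were lower (median -0.201), of 21 aminoacyl-tRNA synthetases 15 (-0.178), of 33 genes of amino acid synthesis 22 (-0.191), of 19 ribi genes 12 (-0.181) and of 19 genes of fatty acid and sterol synthesis 12 (-0.160). Elongation factors gave 8 of 17, with 3 higher (-0.112), initiation factors 9 of 16 (-0.119) and heat shock genes 6 of 15 (-0.082). Leaving out 1 library moved some of these counts by more than 1.5 times: fatty acid and sterol synthesis gave 6 and 7 without +PT replicates 1 and 2, initiation factors 4 and 5, and heat shock genes 3 without -PT replicate 1. Apart from the ribosomal proteins and the elongation factors, no list named so far had a member that was higher, by limma at an adjusted or an unadjusted p under 0.05. With the scores centred on each library's median, the medians of the ribosomal proteins, elongation factors, initiation factors, heat shock genes and genes of fatty acid and sterol synthesis turned above 0, and those of the other 4 lists stayed below it. Among members, the termination factor SUP45 differed by -0.316, the histidyl-tRNA synthetase HTS1 by -0.279 and the nucleolar GTPase NOG1 by -0.331. Without the shallow library, where 54.5% of all genes were lower, 30 of 36 proteasome genes were lower (median -0.228) and 43 of 70 mitochondrial ribosomal proteins were lower and 2 higher (-0.220).

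Of the 13 genes listed as named in the study, 12 had enough reads for the polarity test and 8 of them were lower, beside 63.8% of all genes. The count was 4, 4 and 5 without +PT replicate 1, +PT replicate 2 and -PT replicate 1, and 5 without -PT replicate 2. RPS8A, described above, had the largest difference (-0.564), and glycolytic enzymes came next. PGI1 scored -0.154 and -0.225 in +PT libraries and 0.032 and 0.070 in -PT libraries (-0.240, SE 0.046), PFK1 scored -0.145 and -0.211 in +PT libraries and 0.022 and -0.017 in -PT libraries (-0.181), and the pyruvate kinase CDC19 scored -0.146 and -0.235 in +PT libraries and 0.056 and -0.055 in -PT libraries (-0.191, limma adjusted p = 0.0018). All 3 enzymes lost the call once scores were centred on each library's median, and CDC19 also lost it without +PT replicate 2 (adjusted p = 0.13). The longest coding sequences of the list had scores between -0.096 and 0.013 in the 4 libraries and were not called. The fatty acid synthase FAS1 scored -0.046 and -0.049 in +PT libraries and -0.012 and -0.029 in -PT libraries. URA2, whose counts were higher in +PT, scored -0.096 and -0.029 in +PT libraries and -0.009 and 0.010 in -PT libraries, and the acetyl-CoA carboxylase ACC1 scored -0.010 and -0.005 in +PT libraries and -0.056 and 0.013 in -PT libraries.

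The shift was measured in every class of coding length. The median difference was -0.136 for genes under 500 nt, -0.214 from 500 nt (110), -0.165 from 1000 nt (124), -0.163 from 1500 nt (85), -0.127 from 2000 nt (63), -0.103 from 3000 nt (31) and -0.117 from 4000 nt (29). In the larger set of 4556 genes the medians in +PT libraries were -0.0724 and -0.0391 under 500 nt and between -0.173 and -0.145 in all longer classes. In -PT replicate 1 the median was 0.157 under 500 nt, 0.0835 from 500 nt and 0.0494 from 1000 nt, and it went on down to -0.00943 from 4000 nt. Above 500 nt the -PT median thus declined with length, while the +PT medians were nearly level.

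**Figure D5:**
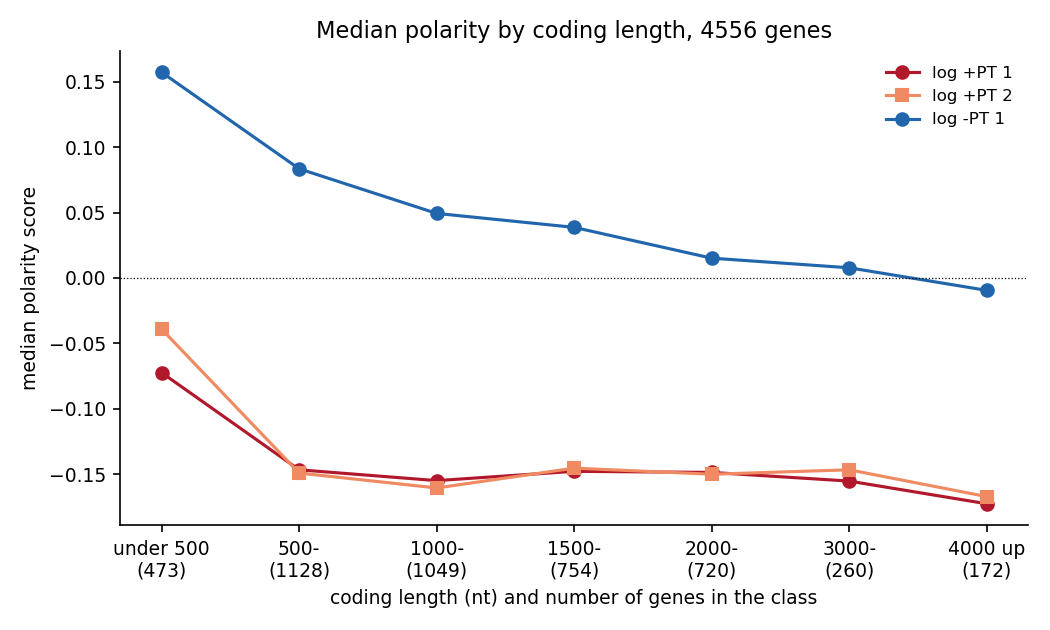
Median polarity score (vertical axis) by class of coding length in nt (horizontal axis) for 4556 genes in log +PT replicates 1 and 2 and log -PT replicate 1. The -PT line runs down from 0.157 in the shortest class to -0.00943 in the longest, and both +PT lines stay between -0.173 and -0.145 in every class from 500 nt up.

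Libraries from 15 min of glucose starvation, none of which enters the comparison above, are set beside it as a description. The older-method and newer-method libraries also came from separate experiments, so method and experiment cannot be told apart there either. With the newer method for both, 1 pretreated library differed from the -PT side by a median of 0.03 on the log2 scale (SD 0.18 over 4019 genes). In that contrast 6 genes differed by more than 2-fold, and the median polarity difference was -0.003. The shallower -PT library of this time held 96478 counts, with a median of 3 reads a gene. The -PT side therefore rests in effect on the deeper library (5041833 counts). With pretreatment in both, the older-method libraries differed from the newer-method library by a median of 0.33 (SD 0.83), 739 genes differed by more than 2-fold, the class with 50% or more of windows shared had a median of -2.20, and the median polarity difference was -0.055. In that second contrast the genes with no shared window had a median of 0.35, ribi genes among them 0.23, heat shock genes 0.43 and cytosolic ribosomal proteins -0.42. Each of these 3 lists lay on the other side of the genes with no shared window than at log phase. The log phase medians with no shared window were 0.04 for all genes, 0.68 for ribi genes, -0.62 for heat shock genes and 0.19 for cytosolic ribosomal proteins. Sulfate assimilation genes with no shared window, at 0.99 (15 genes), lay on the same side as at log phase (2.17). Across genes with no shared window, the second contrast correlated with the log phase count difference with r = 0.39 (3619 genes). For polarity r was 0.62 (3948 genes), with the log phase difference taken without -PT replicate 2. These values rest on 1 pretreated library of the newer method, in effect on 1 deep -PT library, and on starved cells, whose translation is low. Pretreatment alone was not tested in growing cells. At log phase the YPD library, without pretreatment and by the newer method, differed from -PT replicate 1 by a median of -1.83 in the class with 50% or more shared (39 genes) and by -0.035 in polarity, in another medium. Ribi genes with no shared window differed there by a median of 0.45, close to the 0.43 of all genes with no shared window.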

How the data were processed

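The authors deposited, for each library, the raw RPF count and the polarity score of each gene. For the -PT libraries the submitters' methods give trimming with Cutadapt (reads under 17 nt dropped), removal of noncoding RNA and alignment to R64-1-1 with bowtie, removal of duplicates and counting with htseq-count at its defaults. The +PT libraries were trimmed and aligned as in an earlier study. The polarity score was computed by the authors' own scripts. A gene without reads is not listed for a library and was set to a count of 0. Sequence, coding length and shared 28-base windows came from RefSeq R64, which matched 5761 of 5766 listed genes. Near copies were found with blastn 2.17.0 (at least 75% of the coding sequence at 80% identity).

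Counts were compared with edgeR 4.0.16 (R 4.3.3; TMM scaling, filterByExpr, quasi-likelihood test), +PT over -PT, on the 4 log phase libraries. Log2 differences are relative to the other genes, and CPM is per 1000000 counts of a library. The polarity score was compared with limma 3.58.1 (trend on mean log2 count) for genes that passed 25 reads in each of the 4 libraries. Both tests were two-sided, with Benjamini-Hochberg adjustment over all genes tested and calls under 0.05, and both were tested on simulated data. Nothing in the labels says that the 2 libraries of a group came from separate cultures, so p-values measure only the spread between them. DESeq2 1.42.0, other scalings and filters, thinning to the shallowest library, a replicate block and leaving out each library were the alternatives. Depth was 94585 to 5170260 counts a library, and 1 read in the shallowest is worth 10.6 CPM, which limits the low genes there. The level of 3 counts used where a group had 0 reads covers counting error in that group only.

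Named genes were the 10 largest called rises and falls in counts that reached 20 CPM in the higher group without overlap, the 8 largest polarity differences each way with at least 100 reads in all 4 libraries, up to 4 members of each list by adjusted p, all members of the short lists (genes named in the study, deleted and mating type genes, histones) and their near-identical copies. From these, the genes that show each pattern are described. Libraries, lists and rules were chosen with earlier results of these data known. The list of 13 genes named in the study (12 of them tested) was chosen by its authors and is not independent of these samples. Reads were not used here.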

Additional observations from a re-analysis of the deposited data

How the results depend on the processing

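Counts of called genes moved most. By counts, 42 genes were higher and 140 lower in +PT with DESeq2, 231 and 546 with no filter on low counts, 30 and 86 with every library thinned to the shallowest, and 98 lower among genes with no shared window (tested alone, chosen after seeing the data). Leaving out each library gave 0 to 226 higher and 26 to 351 lower. Upper-quartile scaling moved the median of all genes to -0.12. Deviations of same-numbered libraries correlated by 0.109 (log2 CPM) and 0.026 (polarity) over 547 genes. The shallow log -PT replicate 2 enters both values, so they cannot show whether the replicate numbers stand for shared cultures. With the replicate block 323 genes were higher and 371 lower by counts, and 7 and 348 by polarity.

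By polarity, 550 genes were lower with more than 10 reads, 113 with more than 100, 220 with 2 higher when fitted with the 15 min libraries, 45 with 50 higher when centred on each library's median, and 2 were higher among genes with no shared window. Leaving out each library gave 3 to 30 higher and 219 to 2483 lower. The median difference was -0.171 with more than 10 reads, 0 by construction when centred, and -0.194 to -0.157 when leaving out a library. The share of genes with a lower score was 49.0% when centred and 86.1% to 93.2% when leaving out a library. Centring turned FAS1 (0.134), PMA1 (0.0346) and ADH1 (0.0098) above 0.

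By coding length, more than 10 reads gave -0.143 from 2000 nt, -0.119 from 3000 nt and -0.130 from 4000 nt. More than 100 reads gave -0.203 under 500 nt, -0.235 from 500 nt, -0.152 from 1000 nt, -0.133 from 1500 nt, -0.117 from 2000 nt and -0.123 from 4000 nt. Centring gave 0.0254, -0.0529, -0.0038, -0.0018, 0.0346, 0.0582 and 0.0443 in the 7 classes from short to long. Lengths as deposited, which include introns, gave -0.173 under 500 nt and -0.182 from 500 nt. Genes with no shared window gave -0.227 from 500 nt, -0.178 from 1000 nt, -0.137 from 2000 nt and -0.0738 from 4000 nt. Leaving out a library gave -0.205 to -0.120, -0.225 to -0.191, -0.193 to -0.164, -0.180 to -0.141, -0.161 to -0.122, -0.153 to -0.0894 and -0.159 to -0.0828 in the 7 classes. The cause of these moves was not tested. Depth in log -PT replicate 2 limits the genes that can be called, and a pretreatment effect cannot be told apart from the library method.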

Other observations

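The log phase library in YPD, made without pretreatment, lay nearer the +PT libraries by its pattern across 547 genes, those that share windows included. By its level of polarity it lay nearer the -PT libraries. Correlations were not computed for the 352 of these genes with no shared window alone. Over 547 genes its log2 CPM correlated across genes with r = 0.883 and 0.925 with the +PT libraries and 0.753 and 0.712 with the -PT libraries, and its polarity score with r = 0.871 and 0.890 with the +PT libraries and 0.788 and 0.710 with the -PT libraries. Its median score was 0.0298, against -0.104 and -0.0988 in +PT and 0.0642 and 0.0557 in -PT libraries, and over the larger set of genes its polarity correlated with r = 0.379 and 0.432 with the +PT libraries and 0.354 with -PT replicate 1. Medium, pretreatment and experiment differ among these libraries and their part was not tested. Summed, TEF1 and TEF2 took 2100 CPM in the YPD library, and at 15 min of starvation they took 1842 and 991 CPM in +PT libraries of the older method, 44106 CPM in the +PT library of the newer method and 39563 and 45579 CPM in -PT libraries. PHO84 had 3392 CPM in the YPD library.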
